A study of Mus musculus with 16 samples.

Results

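The nuclear genes for the subunits of the mitochondrial respiratory chain were followed through tumor and peri-tumor liver of mice with and without a traditional Chinese medicine (TCM) decoction. Members were taken by symbol from the protein-coding genes of the count table: those starting with Ndufa, Ndufb, Ndufc, Ndufs, Ndufv, Uqcr, Cox4i, Cox5, Cox6, Cox7, Cox8 or Atp5, with Sdha, Sdhb, Sdhc, Sdhd and Cyc1 added, and without the Ndufaf assembly factors and the "-ps" pseudogenes. A total of at least 160 counts over the 16 libraries was required. This gave 80 of the 54838 genes of the table: 36 of complex I, 4 of complex II, 9 of complex III, 14 of complex IV and 17 of complex V. Ndufa4 and its paralog Ndufa4l2 were counted with complex IV. Just inside the minimum lay Cox7a1 with 235 counts, and just outside it Cox6b2 with 143. A further 6 protein-coding genes fell below it: Cox4i2 with 28 counts, Cox6a2 with 13, Cox8b with 6, and Cox7b2, Cox8c and another Atp5o identifier with 0 each. All 80 members also passed the filter on low counts before testing.

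RNA from liver tumors and from the liver next to them was sequenced in 8 mice, 16 libraries in 4 groups of 4. All mice carried the HrasG12V genotype, an activated form of the Ras oncogene, and all libraries bear the label 3 months, which does not say whether it is an age or a length of treatment. The labels name 4 mice as control and 4 as given the TCM decoction. The groups are thus HrasG12V control peri-tumor, HrasG12V control tumor, HrasG12V TCM peri-tumor and HrasG12V TCM tumor, with animal codes in the labels that tie the 2 tissues of a mouse together. The treatment protocol speaks of Ras-transgenic and DEN-induced mice together; whether these mice also received the carcinogen DEN (diethylnitrosamine), which promoter drives the transgene, and what the decoction holds at which dose are not stated in the labels. Liver of mice without the oncogene was not analysed here, so peri-tumor liver is the reference throughout.

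The respiratory chain sits in the inner mitochondrial membrane. Complexes I and II take electrons from NADH and succinate and pass them to ubiquinone, complex III hands them on to cytochrome c, and complex IV to oxygen. The protons pumped by complexes I, III and IV drive complex V, the ATP synthase. Complex II is encoded in the nucleus alone, while the others join nuclear subunits to a few made inside the organelle. Hepatocytes are rich in mitochondria and depend on the chain for gluconeogenesis, urea synthesis and fatty acid oxidation.

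Libraries held 13947483 to 16194224 counts. Values below are CPM, counts scaled to library size with TMM factors (edgeR's correction for library composition), unless FPKM, a level per gene length, is named. Hepatocyte markers were abundant in every library, their 7 genes summing to 72121 to 106940 CPM in control peri-tumor, 109161 to 152020 in control tumor, 97593 to 148740 in TCM peri-tumor and 114782 to 182943 in TCM tumor libraries. Most of that sum was Alb, and the genes did not move together: 2 were higher and 1 lower in control tumors, 1 higher and 2 lower in TCM tumors, and Cps1, of the urea cycle, averaged 3633 CPM in control peri-tumor and 1178 in control tumor libraries, with 2524 and 1036 in the TCM pair. Other cell types moved with the tissue: the 5 macrophage genes summed to 274 to 605 CPM in control peri-tumor against 109.2 to 139 in control tumor libraries, with 171 to 191 and 40.5 to 144 in the TCM pair, and the 5 stellate cell and fibroblast genes to 94.7 to 184 against 263 to 479, with 146 to 190 and 213 to 309 in the TCM pair. In the latter list 3 genes were higher and 1 lower in control tumors and 3 higher and 2 lower in TCM tumors; the collagens Col1a1 and Col3a1 and Reln had higher means in tumors, while Dcn averaged 86.3 against 63.7 and 100.05 against 42.7 CPM and Lrat 10.3 against 5.41 and 11.8 against 5.53. Their part in the results was not tested. On the axis that explained 12.7% of the variance between libraries, the TCM libraries lay at 21.5 to 38.2. Control mouse 4 stood apart from the other control mice, toward the TCM libraries. It lay at 3.85 in peri-tumor and -4.49 in tumor tissue, where the other control libraries lay at -57.0 to -19.2. TCM peri-tumor 3 and TCM tumor 2 were low in GC-rich genes, by -0.29 and -0.24 on the log2 scale against GC-poor genes over all genes, and by -0.11 and -0.14 over the members. The counts and the median over all members in TCM tumors are given with and without both. So are the changes of Ndufv3, Ndufa2, Uqcr11 and Cox8a in TCM mice. Values by complex are given with these libraries only. Ndufs6 and Cox5b also stood out in both and are not given without them. Ndufs6 held 26.5 CPM in TCM peri-tumor 3, where the other TCM peri-tumor libraries held 55.7 to 59.0. In TCM tumor 2 it held 16.9 against 40.6 to 45.8 CPM.

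Among the members, the deposited FPKM spanned more than 2 orders of magnitude. The lengths behind them run from near that of the main annotated transcript (545 and 550 bases in Cox8a) to far above it. Cox6a1 had 1191 against 571 bases, Atp5b 6918 against 1916 and Atp5l 7757 against 544. The order of members by FPKM therefore depends on the lengths used. In control peri-tumor liver Cox8a, a small subunit of complex IV, was highest at 335 ± 29.2 FPKM (mean ± SD, n = 4). It was followed by Cox6a1 of complex IV at 218 ± 6.98, the complex II membrane anchor Sdhd at 154 ± 14.8 and Ndufa2 of complex I at 152 ± 21; the ranges of Sdhd and Ndufa2 do not separate them. At the low end, Ndufs3, Atp5l, Ndufa4l2 and Ndufb4 lay at 0.53, 0.64, 0.72 and 0.84 FPKM. Ndufs3, Atp5l and Ndufb4 share much of their transcript with other genes of the annotation, which is taken up with the copies, and reads assigned elsewhere are not in these values. The median member lay at 36.2 FPKM.

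In control mice the subunits of all 5 complexes were lower in tumors. Summed over the 80 members, control peri-tumor libraries 1 to 4 held 9935, 9090, 9592 and 8187 CPM and control tumor libraries 6042, 5667, 5794 and 5314 CPM. The 2 tissues did not overlap: the highest tumor lay below the lowest peri-tumor library. By edgeR's quasi-likelihood test with Benjamini-Hochberg adjustment over the 14865 genes tested (called at an adjusted p under 0.05), 69 members were lower in control tumors, 0 were higher and 11 were not called. Among all genes tested 21.2% were called lower and 22.0% higher, and 0 members were higher at an unadjusted p under 0.05. The members' median log2 fold change was -0.69, a 1.61-fold lower level, against 0.00 over all genes. Of the members, 66 were called lower with no overlap between the libraries of the tissues, against 17.2% of all genes, and 12 of those called fell at least 2-fold. Without control mouse 4, 67 were lower. In bulk tissue, fewer cells rich in these transcripts and less of them per cell cannot be told apart, and p-values measure the spread between the mice sampled.

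**Figure D1:**
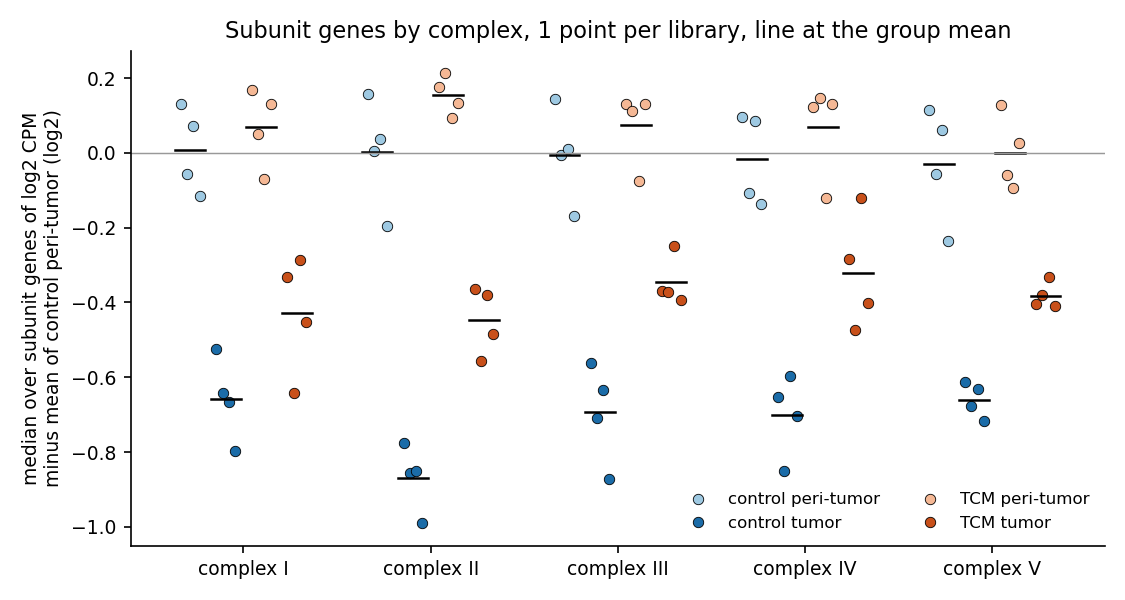
Median over the subunit genes of each complex (horizontal axis) of the log2 ratio of a library to the mean of the 4 control peri-tumor libraries (vertical axis); each point is 1 library and each short line a group mean. Means of the control tumors run from -0.66 for complexes I and V to -0.87 for complex II, and means of the TCM tumors from -0.45 to -0.32; in complex I the lowest TCM tumor lies among the control tumors.

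Complex I, the NADH dehydrogenase, had 31 of 36 members lower in control tumors and 23 in TCM tumors, with medians of -0.66 and -0.48. Ndufb9, an accessory subunit of its membrane arm, measured 164, 153, 178 and 129 CPM in control peri-tumor and 81.4, 70.9, 73.4 and 60.4 CPM in control tumor libraries; in TCM mice it measured 165, 167, 117 and 154 against 110, 83.8, 112 and 97.2. Tumors were below all peri-tumor libraries under either treatment. Its log2 fold change was -1.12 ± 0.14 (SE; adjusted p = 1.4e-05, edgeR) in control and -0.58 ± 0.14 (adjusted p = 0.0046) in TCM mice, where TCM peri-tumor 3 came close to the tumors. Ndufb7, a neighbor in the same arm, had the lowest p of the complex, with 62.4, 58.0, 62.3 and 47.9 CPM in control peri-tumor against 33.2, 31.8, 31.8 and 29.6 in control tumor libraries (-0.87 ± 0.11, adjusted p = 9.9e-06).

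Ndufs1, the large iron-sulfur core subunit, differed by tissue and by treatment. Control peri-tumor libraries held 86.4, 100.8, 91.5 and 90.9 CPM and control tumors 65.2, 64.0, 65.0 and 68.5; TCM peri-tumor libraries held 127, 127, 140 and 126 CPM and TCM tumors 84.0, 89.7, 77.8 and 77.3. In either tissue every TCM library was above every control library. The tumor change was -0.49 ± 0.08 (adjusted p = 0.00016, edgeR) in control and -0.66 ± 0.08 (adjusted p = 2.3e-05) in TCM mice, and the gene was higher with TCM by 0.49 ± 0.08 in peri-tumor liver (adjusted p = 0.0017) and by 0.32 ± 0.08 in tumors (adjusted p = 0.027). Ndufc2, an accessory subunit, was the one member called lower in TCM tumors alone: 47.2, 50.5, 46.1 and 41.8 CPM in TCM peri-tumor against 29.9, 27.5, 30.6 and 26.1 in TCM tumor libraries (-0.70 ± 0.10, adjusted p = 0.00012). In control mice it measured 41.3, 39.4, 38.5 and 29.2 against 33.2, 32.2, 32.5 and 32.6, with overlap through peri-tumor 4 (-0.18 ± 0.10, adjusted p = 0.17). The difference between those changes, -0.52 ± 0.15, did not pass (adjusted p = 0.087).

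The 4 members of complex I called in neither tumor comparison all had negative estimates. Ndufa11, an accessory subunit, changed by -0.33 ± 0.17 and -0.32 ± 0.16, and Ndufv3, an accessory subunit of the NADH-binding module, by -0.49 ± 0.23 and -0.16 ± 0.23 in control and TCM mice. Without TCM peri-tumor 3 and TCM tumor 2 the latter was -0.14 (adjusted p = 0.544, edgeR). Ndufa2 measured 97.2, 92.0, 86.4 and 74.2 CPM in control peri-tumor and 71.6, 63.7, 67.9 and 51.0 in control tumor libraries, which do not overlap, yet its change of -0.46 ± 0.19 had an adjusted p of 0.065 (edgeR); its TCM peri-tumor 3 and TCM tumor 2 libraries, at 52.8 and 41.1 CPM, lay far below the other TCM libraries at 75.7 to 80.8. Without both its change in TCM mice was -0.0924 (adjusted p = 0.634). Ndufs3, a core subunit with much shared sequence, ranged from 1.18 to 2.45 CPM over the 16 libraries, with overlap between all groups.

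Complex II, succinate dehydrogenase, which also works in the TCA cycle, was lower in tumors in all 4 of its members under both treatments, with medians of -0.87 and -0.68. Sdhb, the iron-sulfur subunit, had the lowest p of the complex: 208, 196, 188 and 156 CPM in control peri-tumor against 97.8, 91.2, 94.1 and 75.7 in control tumor libraries, and 211, 215, 199 and 201 against 115, 114, 112 and 105.1 in TCM mice. Each tumor group lay well below its peri-tumor group. The log2 fold changes were -1.06 ± 0.10 (adjusted p = 1.3e-06, edgeR) and -0.89 ± 0.10 (adjusted p = 1.4e-05).

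Sdha, the flavoprotein that oxidizes succinate, was the complex II gene in which the treatments stood furthest apart. It measured 384, 362, 406 and 391 CPM in control peri-tumor, 218, 197, 207 and 191 in control tumor, 540, 565, 478 and 528 in TCM peri-tumor and 350, 288, 320 and 295 in TCM tumor libraries. No 2 of the 4 groups overlapped. Tumors were lower by -0.93 ± 0.10 in control and -0.75 ± 0.10 in TCM mice on the log2 scale, and TCM libraries were higher by 0.45 ± 0.10 in peri-tumor liver (adjusted p = 0.0074, edgeR) and by 0.63 ± 0.10 in tumors (adjusted p = 0.0027), so that TCM tumors remained below control peri-tumor liver. The tumor change itself did not pass as different between treatments (0.17 ± 0.14, adjusted p = 0.55). The membrane anchors Sdhc and Sdhd, which carry the heme and the quinone site, fell by 0.59 and 0.81 on the log2 scale in control and by 0.53 and 0.60 in TCM tumors. Sdhd was also higher in TCM than in control tumors (152, 127, 145 and 132 against 115, 114, 110 and 97.9 CPM; 0.35 ± 0.10, adjusted p = 0.04).

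Complex III, the cytochrome bc1 complex, had 8 of 9 members lower in control tumors and 5 in TCM tumors, with medians of -0.71 and -0.49. Uqcrb, which helps to hold ubiquinone, had the lowest p, with 85.2, 81.9, 98.4 and 71.2 CPM in control peri-tumor against 46.5, 42.0, 43.2 and 41.1 in control tumor libraries, and 89.2, 79.4, 72.0 and 78.0 against 61.3, 48.9, 62.3 and 54.8 in TCM mice (-0.96 ± 0.11, adjusted p = 5.9e-06, and -0.49 ± 0.11, adjusted p = 0.003, edgeR). Uqcrb shares 43.2% of its transcript with other genes, so its values are uncertain. Cyc1, the cytochrome c1 heme protein, measured 163, 177, 134 and 126 against 70.9, 85.0, 68.3 and 82.0 CPM in control and 164, 145, 143 and 164 against 105.4, 84.3, 98.2 and 83.5 in TCM mice, with no overlap in either (-0.97 ± 0.13 and -0.73 ± 0.13).

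Uqcr11, a small subunit of complex III, had the lowest fold change of the complex in control tumors and nearly none in TCM tumors. It measured 83.6, 80.5, 81.5 and 72.1 against 53.6, 37.1, 32.2 and 23.9 CPM in control mice (-1.11 ± 0.32, adjusted p = 0.011, edgeR), and 68.8, 77.7, 28.8 and 73.7 against 71.4, 29.2, 84.5 and 68.8 in TCM mice (0.03 ± 0.32, adjusted p = 0.96). The low TCM libraries are peri-tumor 3 and tumor 2, the ones that were low in GC-rich genes. Without both the change was -0.0146 (adjusted p = 0.969). Uqcrh, the hinge protein that binds cytochrome c1, was called in neither comparison (-0.33 ± 0.18 and 0.04), with overlapping libraries under both treatments.

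Complex IV, cytochrome c oxidase, had 11 of 14 members lower in control tumors; in TCM tumors 7 were lower and 1, Cox7c, was higher, and the medians were -0.74 and -0.32. Several of its subunits come as pairs of isoforms, of which liver uses the ubiquitous or liver form. Cox4i1, the regulatory subunit, measured 261, 170, 257 and 178 against 116, 119, 149 and 124 CPM in control and 246, 260, 179 and 248 against 145, 153, 171 and 131 in TCM mice (-0.77 ± 0.16 and -0.64 ± 0.16), while Cox4i2 was left out by the count minimum. Cox6a1 measured 280, 245, 257 and 270 against 192, 174, 187 and 174 CPM in control and 305, 298, 255 and 302 against 244, 193, 249 and 226 in TCM mice (-0.54 ± 0.10 and -0.35 ± 0.10). In both genes the tissues did not overlap under either treatment, and the muscle form Cox6a2 had 13 counts in all.

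The remaining paired forms moved less alike. Cox6b1 was lower in control tumors (109.3, 104, 99.2 and 105.8 against 70.7, 77.2, 75.5 and 70.3 CPM) and narrowly so in TCM tumors (-0.27 ± 0.10, adjusted p = 0.043, edgeR), a call that was lost in several of the alternative fits. Cox7a2, the liver form of subunit 7a, measured 91.8, 73.4, 86.2 and 84.6 against 62.7, 59.6, 63.0 and 64.4 CPM in control and 127, 114, 142 and 115 against 69.2, 65.6, 74.4 and 64.2 in TCM mice (-0.43 ± 0.09 and -0.87 ± 0.10). Its level was higher with TCM in peri-tumor liver (0.57 ± 0.09, adjusted p = 0.0019) and not called in tumors (0.13). Cox7a2l, which links complexes III and IV in supercomplexes, was near even in both comparisons (-0.03 and -0.13), and the muscle form Cox7a1, at 1.25 FPKM in control peri-tumor liver beside 63.5 for Cox7a2 and 30.9 for Cox7a2l, was called in neither (0.21 to 1.65 CPM over the 16 libraries).

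Cox8a measured 198, 170, 199 and 171 against 116, 111, 111 and 90.0 CPM in control mice (-0.79 ± 0.17, adjusted p = 0.0013, edgeR) and 185, 194, 123 and 187 against 159, 99.5, 172 and 152 in TCM mice (-0.24 ± 0.17, adjusted p = 0.29). Its TCM tissues overlapped through peri-tumor 3, one of the 2 libraries low in GC-rich genes. Without both it was -0.27 (adjusted p = 0.0964). Ndufa4, a subunit of complex IV in spite of its name, was lower under both treatments (-0.76 ± 0.10 and -0.65 ± 0.10). Ndufa4l2, its paralog known as a target of hypoxia signaling, measured 0.764, 1.03, 1.27 and 2.65 CPM in control peri-tumor and 1.90, 1.59, 3.15 and 3.52 in control tumor libraries, the highest estimate of any member at 0.84 ± 0.44 and not called (adjusted p = 0.14). Without control peri-tumor 4 it was called higher (1.31, adjusted p = 0.0259), as it was with a term for each mouse (0.89, adjusted p = 0.0375), which made it the single member higher in control tumors.

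Complex V, the ATP synthase, had 15 of 17 members lower in control tumors and 12 in TCM tumors, with medians of -0.67 and -0.46. Its rotor ring is built of subunit c, for which mammals keep 3 genes that encode the same mature protein. In the deposited FPKM values Atp5g3 lay at 91.1 and Atp5g1 at 6.13 in control peri-tumor liver, but pseudogenes that share sequence with Atp5g1 and Atp5g2 held more counts than these genes: with the copy added, Atp5g1 lay at 160 to 220 and Atp5g2 at 120 to 144 CPM in those libraries, so the order of the 3 genes is uncertain. Atp5g3 measured 305, 269, 281 and 223 against 172, 171, 174 and 153 CPM in control and 346, 324, 295 and 315 against 218, 207, 232 and 215 in TCM mice, with no overlap (-0.69 ± 0.10 and -0.55 ± 0.10). Atp5g2, at 1.41 to 2.87 CPM, was called in neither tumor comparison, but 87.4% of its transcript is shared with other genes; summed with its copy it was lower in control tumors (-0.29 ± 0.09, adjusted p = 0.013, edgeR). Atp5s, in the set by its prefix and known as a factor that couples the stalk, was called in none of the comparisons (2.19 to 5.65 CPM over the 16 libraries).

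Atp5k, subunit e of the membrane sector where the synthase forms dimers, measured 43.4, 44.0, 59.4 and 47.5 CPM in control peri-tumor and 18.2, 21.1, 21.2 and 24.2 in control tumor libraries. In TCM mice it measured 49.98, 45.7, 45.5 and 48.9 against 35.2, 26.5, 38.6 and 32.8. TCM tumors thus lay between the control tumors and all peri-tumor libraries without touching either. The tumor change was -1.20 ± 0.13 (adjusted p = 3.2e-06, edgeR) in control and -0.51 ± 0.13 (adjusted p = 0.0056) in TCM mice, and the difference of 0.68 ± 0.18 missed the threshold (adjusted p = 0.071). Atp5f1, subunit b of the peripheral stalk, changed least among the called members of the named set, with 160, 176, 217 and 180 against 144, 126, 137 and 143 CPM in control mice (-0.41 ± 0.12, adjusted p = 0.013).

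In TCM mice 51 members were lower in tumors and 1 was higher, against 15.6% and 17.3% of all genes tested. The median was -0.47, a 1.38-fold lower level, against 0.00 over all genes, and 47 members were lower with no overlap of the libraries, against 13.7% of all genes. The summed level was 10518, 10281, 9369 and 10152 CPM in TCM peri-tumor and 7402, 6498, 7677 and 6925 in TCM tumor libraries. Every TCM tumor was below every peri-tumor library and above every control tumor. Without TCM peri-tumor 3 and TCM tumor 2, 52 were lower, 0 higher and the median was -0.50; the call of Cox7c as higher was also lost when TCM peri-tumor 2, TCM peri-tumor 3 or TCM tumor 3 alone was left out (adjusted p of 0.0513 to 0.069). Of the members called lower, 50 were lower in both treatments, which is 50 of the 69 in control and 50 of the 51 in TCM mice; 18 were called lower in control tumors and not called in TCM tumors. For 67 of 80 members the fold change was smaller in size in TCM mice. Calls over all genes were fewer there too: 2572 higher and 2325 lower, against 3271 and 3144 in control tumors. The share of all genes with a smaller change was not computed, so the 67 cannot be read as particular to the members.

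Within single mice the tumor was lower for 77, 75, 78 and 75 of the 80 members in control mice 1 to 4, with median log2 ratios of -0.73, -0.71, -0.73 and -0.58. In TCM mice 1 to 4 it was lower for 73, 73, 57 and 70, with medians of -0.52, -0.65, -0.24 and -0.51. TCM mouse 3, whose peri-tumor library is one of the 2 low in GC-rich genes, had the smallest median of the 8 mice. It was also the 1 mouse of 8 whose peri-tumor library did not correlate best with its own tumor once group means were removed (0.091). For 51 members the tumor was lower in all 8 mice. These within-mouse counts were not made over all genes. Of all genes tested, 21.2% were called lower in control and 15.6% in TCM tumors.

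**Figure D2:**
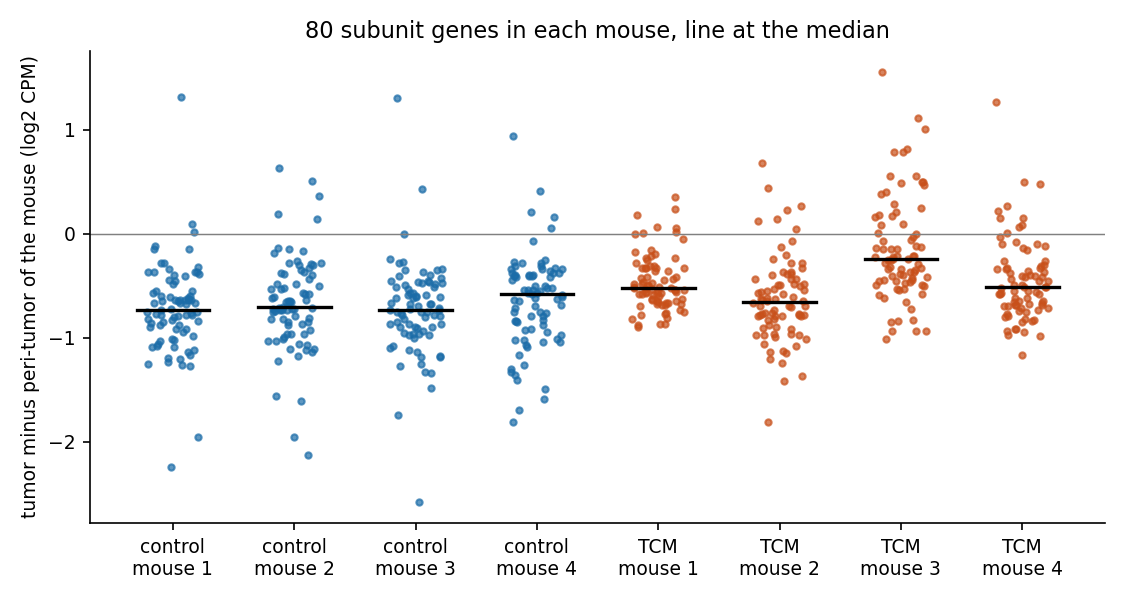
Log2 ratio of tumor to peri-tumor CPM within each mouse (vertical axis, log2) for the 80 subunit genes, 1 point per gene, with a line at the median; control mice are blue and TCM mice orange. Medians run from -0.73 to -0.58 in the 4 control mice and from -0.65 to -0.24 in the 4 TCM mice, with TCM mouse 3 closest to 0.

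**Figure D3:**
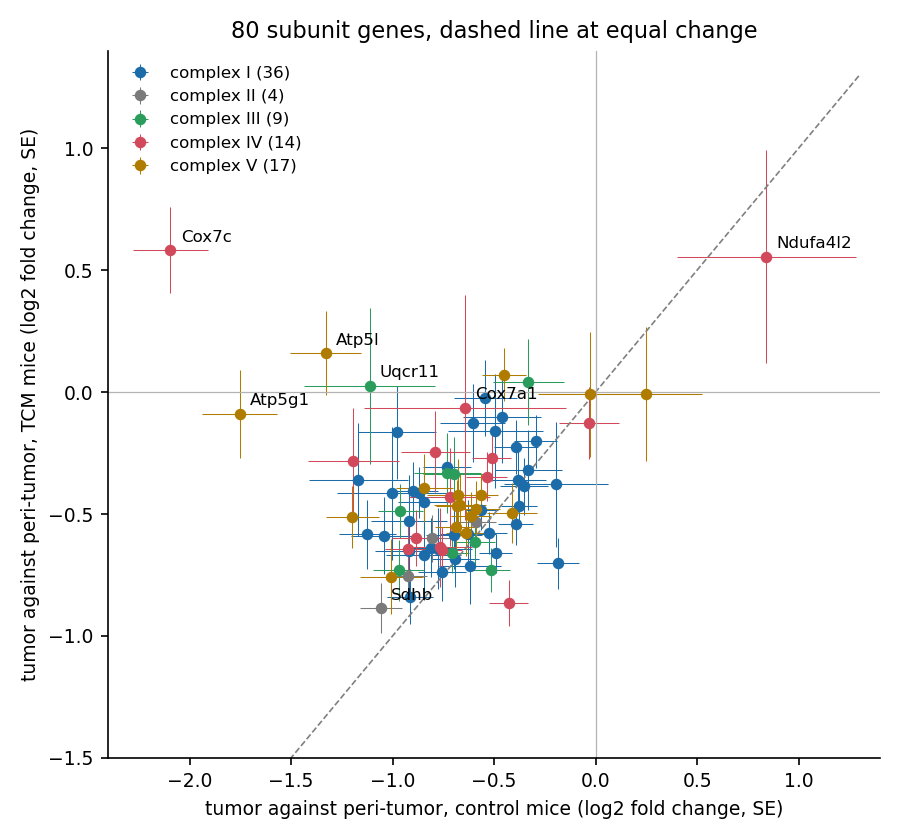
Log2 fold change of tumor against peri-tumor for each subunit gene in control mice (horizontal axis) and in TCM mice (vertical axis), 1 point per gene colored by complex, with SE bars and a dashed line of equal change. Most points lie below 0 on both axes and above the dashed line; Cox7c, at -2.09 and 0.58, lies furthest from it.

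In peri-tumor liver the decoction went with changes in few members. Higher in TCM mice were 8, Ndufc2, Ndufa10, Ndufs1, Sdha, Uqcrfs1, Uqcrc1, Uqcrc2 and Cox7a2, and lower were 3, Cox7c, Atp5g1 and Atp5l, against 6.71% and 7.35% of all genes tested. These shares are near the background. The median was 0.10 against 0.00 over all genes. Uqcrc1 and Uqcrc2 are the core proteins of complex III and Uqcrfs1 its Rieske iron-sulfur protein, and they rose by 0.32 ± 0.10, 0.45 ± 0.09 and 0.28 ± 0.08. Leaving out control peri-tumor 2 left 4 members higher, and leaving out control peri-tumor 3 or 4 or TCM peri-tumor 1, 2 or 3 left 5. The calls of Ndufs1, Sdha, Uqcrc2 and Cox7a2 as higher were kept in every alternative run.

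In tumors 17 members were higher in TCM than in control mice and 0 were lower (0 also at an unadjusted p under 0.05), against 4.55% and 2.72% of all genes. They came from all complexes: Ndufs1, Ndufs5 and Ndufb9 of complex I, Sdha and Sdhd of complex II, Uqcrfs1 and Uqcrb of complex III, Ndufa4, Cox5b, Cox7b and Cox7c of complex IV, and 6 of complex V. Those 6 were the catalytic head subunits Atp5a1 and Atp5b (0.35 ± 0.10 and 0.44 ± 0.10), the ring genes Atp5g1 and Atp5g3, and Atp5k and Atp5l of the dimer region. With pseudogene copies summed, as described with the copies, 15 members were called, and Atp5l (0.18, adjusted p = 0.252), Cox5b (0.62, adjusted p = 0.0765) and Ndufs5 (0.32, adjusted p = 0.0773) were not. The median was 0.32, a 1.25-fold higher level, against 0.00 over all genes, and 75 of 80 estimates were positive. How many were called depended on single libraries. The count was 3 without TCM tumor 3, 4 without control tumor 2, 7 without control tumor 3, 9 without TCM tumor 1, 11 without control tumor 4 and 25 without TCM tumor 2; it was 24 without both libraries low in GC-rich genes and 23 without control mouse 4. With scaling to total counts in place of TMM it was 4, and DESeq2 called 28. Over all genes total-count scaling called 407 higher and 453 lower, where TMM gave 677 and 405. Calls over all genes are not given for the other runs, so these shifts cannot be read as particular to the members. The calls of Sdha, Cox7c and Atp5k were kept in every alternative run.

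**Figure D4:**
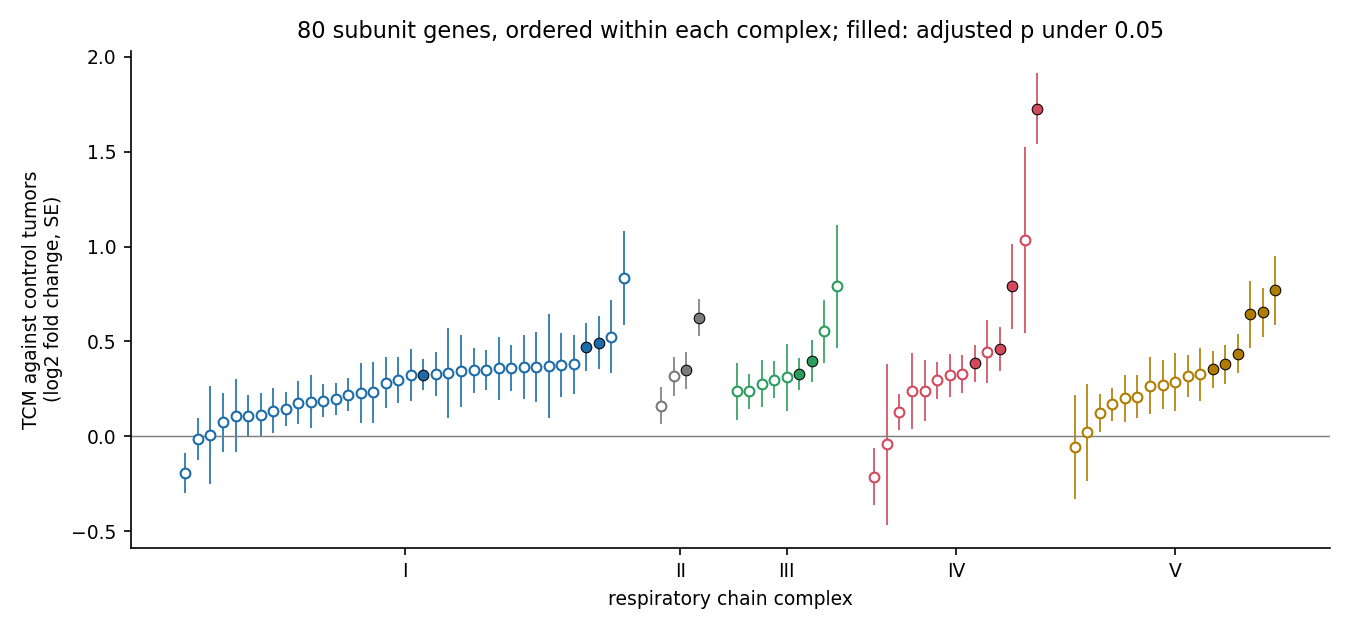
Log2 fold change of TCM against control tumors (vertical axis) for the 80 subunit genes, ordered by value within each complex (horizontal axis), with SE bars; filled points are the 17 genes called. Of the 80 points 75 lie above 0, and the highest is Cox7c of complex IV at 1.73.

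The tumor change differed between treatments for 3 members, all in the same direction: Cox7c, Atp5g1 and Atp5l were higher and 0 lower in the difference of the tumor effect (TCM minus control), against 0.706% and 0.404% of all genes tested. The median difference was 0.18 against 0.03 over all genes, with 65 of 80 positive; without TCM peri-tumor 3 and TCM tumor 2 it was 0.17, with 3 higher and 0 lower. At an unadjusted p under 0.05, 18 were higher and 2 lower. Short transcripts had the larger differences. The 40 shorter members, up to 865 bases, had a median difference of 0.37 and the 40 longer ones 0.07; other genes of those lengths had 0.15 and 0.02, and the part of length in the result was not tested.

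Cox7c (ENSMUSG00000017778), a small membrane subunit of complex IV, measured 11.4, 12.04, 15.7 and 13.0 CPM in control peri-tumor, 2.41, 3.12, 2.64 and 4.0 in control tumor, 7.93, 6.28, 5.82 and 6.91 in TCM peri-tumor and 8.02, 10.1, 12.6 and 9.79 in TCM tumor libraries. The order of the tissues was opposite under the 2 treatments, with no overlap in either. Its log2 fold change was -2.09 ± 0.19 in control and 0.58 ± 0.18 in TCM tumors, a difference of 2.68 ± 0.26 (adjusted p = 0.00015, edgeR). Atp5g1 (ENSMUSG00000006057) measured 67.6, 70.1, 55.8 and 48.2 against 17.5, 23.8, 16.7 and 13.7 CPM in control mice and 26.4, 31.2, 32.0 and 40.4 against 30.0, 23.8, 36.4 and 32.2 in TCM mice, where the tissues overlapped (difference 1.66 ± 0.26, adjusted p = 0.0052). Atp5l (ENSMUSG00000038717), subunit g of the synthase, measured 5.03, 4.05, 5.34 and 5.86 against 2.09, 1.73, 2.12 and 2.09 CPM and 2.51, 2.43, 3.32 and 3.01 against 3.22, 2.92, 2.81 and 3.63 (difference 1.49 ± 0.24, adjusted p = 0.0073).

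All 3 genes share sequence with pseudogenes that were counted as genes of their own, and their values are uncertain for that reason. As the share of 50-base words of a gene's transcripts that also occur in other genes of the reference annotation, the overlap was 53.0% for Cox7c, 68.5% for Atp5l and 10.6% for Atp5g1. The genes sharing most were Gm10012, Gm10221 and Gm10039. Gm10221 averaged 89.8 CPM over all libraries beside 3.26 for Atp5l, Gm10039 averaged 102.3 beside 35.4 for Atp5g1, and Gm10012 averaged 6.74 beside 8.23 for Cox7c. For 24 members a gene sharing at least 5% could be summed with the member, and in 6 of them it took more reads than the member. Besides Atp5l and Atp5g1 these were Ndufa12, Ndufb4, Ndufs3 and Atp5g2. Cox6a1 and Atp5o also had such a gene, sharing 12.3% and 24.6%, and are not among the 24. In all, 11 members shared at least 25% of their words (Atp5g2, Atp5l, Cox7c, Atp5h, Uqcrb, Ndufb4, Ndufs3, Atp5o, Ndufs5, Ndufa12 and Cox5b), and their values are uncertain.

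Under TCM the copy of Atp5l had nearly the levels it had in control mice. Gm10221 measured 120, 98.2, 115 and 85.4 CPM in control peri-tumor against 67.5, 67.3, 67.1 and 71.9 in control tumor libraries, and 111, 112, 110.03 and 107.9 against 76.1, 78.7, 78.1 and 70.7 in TCM mice. With each member and its copy summed, an alternative chosen after seeing the data, the difference of the tumor effect was 0.14 for Atp5l (adjusted p = 0.641, edgeR) and 0.74 for Atp5g1 (adjusted p = 0.0578). For Cox7c it was 1.61 (adjusted p = 0.00253), with -1.52 in control tumors and 0.09 in TCM tumors (adjusted p = 0.707). Cox7c was then the single member called. Among the 59 members with under 10% of their transcript shared, 0 differed. Over all genes 0.706% were called higher and 0.404% lower, so a count of 0 among 59 is near the background. With the sums, 55 members were lower and 0 higher in TCM tumors, and the 3 members lower with TCM in peri-tumor liver became 0.

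**Figure D5:**
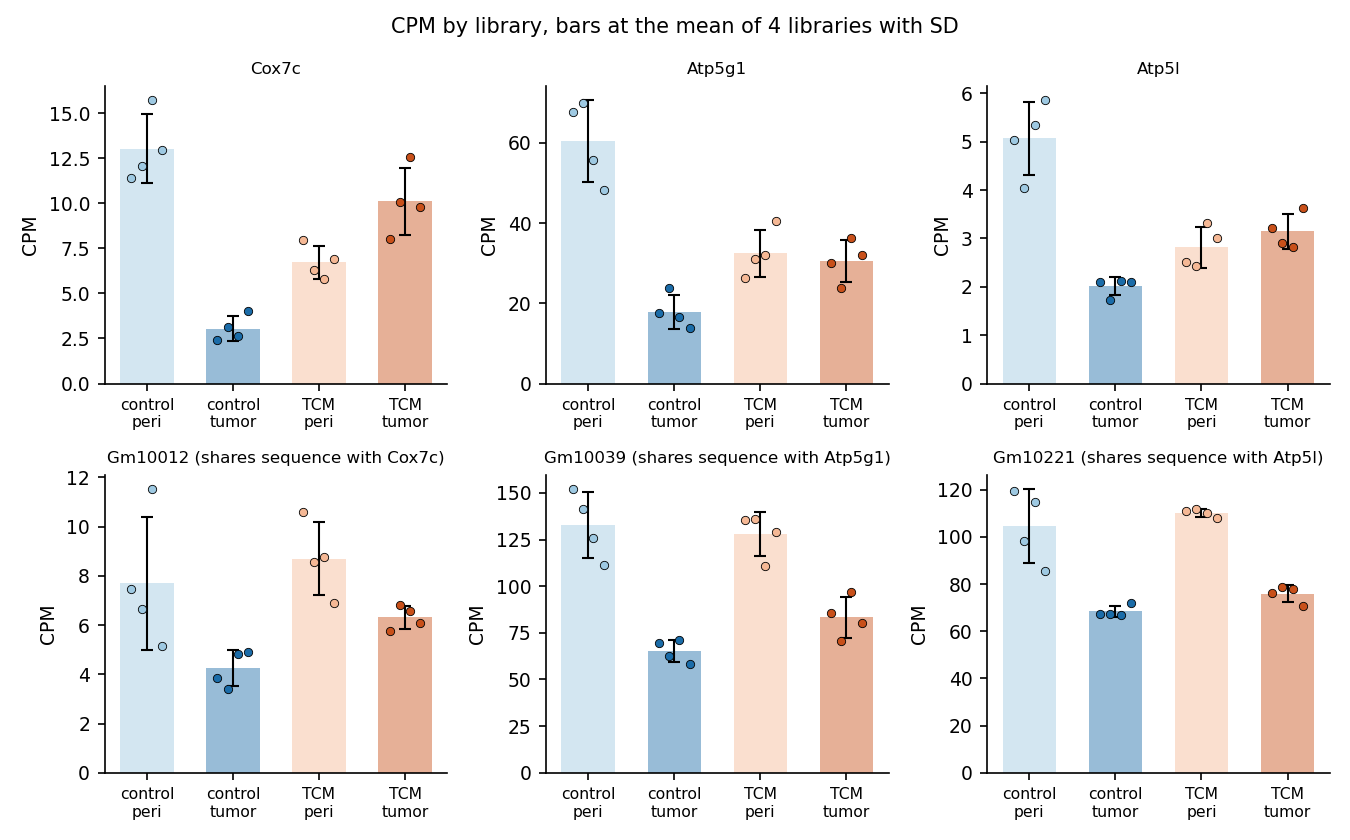
CPM by library (points; bars at the group mean of 4 libraries with SD) of Cox7c, Atp5g1 and Atp5l in the upper row and of the pseudogene that shares most sequence with each in the lower row, on separate scales from 0. Each member has its highest mean in control peri-tumor liver, while the 3 pseudogenes have higher means in peri-tumor than in tumor tissue under both treatments.

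Of the surrounding pathway, the 13 subunits encoded in mitochondrial DNA were lower in tumors in 11 cases in control and 12 in TCM mice, with medians of -0.86 and -1.02. These transcripts summed to 42126 to 52892 CPM in control peri-tumor, 22000 to 31378 in control tumor, 49439 to 87101 in TCM peri-tumor and 27007 to 39942 in TCM tumor libraries. The tissues did not overlap, nor was any of the 13 called in the difference of the tumor effect. Their median difference was -0.12, where that of the nuclear members was 0.18. With TCM 1 was higher in peri-tumor liver, mt-Nd3, and 1 in tumors, mt-Nd1. Assembly factors, which build the complexes without staying in them, were lower in control tumors in 12 of 17 cases for complex I, 2 of 4 for complex II, 4 of 6 for complex III, 10 of 25 for complex IV and 4 of 5 for complex V, and 0 were higher, where 21.2% of all genes were lower. In TCM tumors 7, 0, 2, 6 and 3 of them were lower and 1 of complex I and 1 of complex IV were higher, where 15.6% of all genes were lower and 17.3% higher. Ecsit of complex I (-0.99 ± 0.12), Uqcc3 of complex III (-1.17 ± 0.15) and Fmc1 of complex V (-1.45 ± 0.22) were among the lowest in control tumors. Uqcc3 was also called in the difference of the tumor effect (1.10 ± 0.21, adjusted p = 0.0241, edgeR).

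Mitochondrial ribosomal proteins, which translate the subunits made in the organelle, were lower in 43 of 78 cases in control and 30 in TCM tumors (medians -0.38 and -0.28), with 2 and 1 higher. The 25 genes of mitochondrial import and the outer membrane had 10 and 7 lower with 0 and 2 higher, and medians of -0.31 and -0.09. Over all genes 21.2% and 15.6% were lower and 22.0% and 17.3% higher. The subunits' medians were -0.69 and -0.47.

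The listed regulators of respiratory genes had no common direction. The list is mixed and holds genes such as Ncor1, Nrip1, Sirt1 and Polrmt. Its counts therefore do not speak for the factors that drive respiratory genes. Of 23 regulators 6 were higher and 5 lower in control tumors, and 2 higher and 6 lower in TCM tumors, counts to be read against 22.0% and 21.2% of all genes in control and 17.3% and 15.6% in TCM tumors. Nrf1, the nuclear respiratory factor, changed by 0.23 ± 0.12 and 0.08 ± 0.12 and was not called in any of the comparisons. Nor were the coactivators Ppargc1a and Ppargc1b, the receptors Esrra and Ppara, or Tfam, a factor for the transcription of mitochondrial DNA. Other listed regulators had higher means in control tumors. Pprc1, Gabpb1, Gabpb2 and Myc averaged 28.1, 10.8, 32.8 and 7.38 CPM there against 18.4, 7.59, 25.4 and 3.19 in control peri-tumor liver. Polrmt, Sirt1 and Foxo1 had lower means there, at 16.8, 7.51 and 46.4 against 23.0, 10.7 and 57.6 CPM. Esrrg, a relative of Esrra, was lower in control tumors (-2.82 ± 0.66, adjusted p = 0.00262, edgeR). Its level was near the floor, with means of 0.17 CPM in control tumors and 1.27 CPM in control peri-tumor liver. Tfb2m, a mitochondrial transcription factor, was lower in TCM tumors (-0.58 ± 0.11) and higher with TCM in peri-tumor liver (0.44 ± 0.11). Gabpa was not called in control tumors (-0.02 ± 0.10), was lower in TCM tumors (-0.39 ± 0.10, adjusted p = 0.0074, edgeR) and higher with TCM in peri-tumor liver (0.45 ± 0.10, adjusted p = 0.0107). Yy1 was higher in control tumors (0.27 ± 0.09, adjusted p = 0.0229) and lower in TCM than in control tumors (-0.33 ± 0.09, adjusted p = 0.0351). Sirt3, the mitochondrial deacetylase, was lower in control and in TCM tumors (-1.99 ± 0.14 and -1.25 ± 0.13) and higher in TCM than in control tumors (0.79 ± 0.13, adjusted p = 0.00454). Hif1a, the hypoxia factor, was higher in control tumors (0.70 ± 0.12), and of 17 hypoxia response genes tested 4 were higher and 6 lower there, where 22.0% and 21.2% of all genes were.

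Promoters of the members are shown because Nrf1 and the other factors act on them. In the RefSeq table of promoters (assembly GRCm38.p6; 250 bases before to 50 after the start of each gene) 64 of the 80 members had an entry. The letters GCGCATGC, the core of the Nrf1 site, were searched on both strands (GCATGCGC on the other) and occurred in 10 of the 64 members (15.6%) and in 3.05% of 27025 genes. The Gabpa core CCGGAAGT occurred in 5 (7.81% against 4.31%), the Yy1 core AAGATGGCG in 7 (10.9% against 1.64%) and the ERR core TCAAGGTCA in 2 (3.13% against 0.47%), and any of the 4 in 23 (35.9% against 8.93%). The 27025 genes are all genes of that table, not chosen for expression or protein coding as the members were. The shares thus compare unlike sets and cannot be read as particular to the members. For 4 complexes, the member with the lowest p in control tumors among those with an Nrf1 match before the start is printed, 5′ to 3′ on the gene's strand over the 250 bases before the start, with the match in capitals; complex III had none there.
Ndufa6, chr15:82354292-82354541, minus strand: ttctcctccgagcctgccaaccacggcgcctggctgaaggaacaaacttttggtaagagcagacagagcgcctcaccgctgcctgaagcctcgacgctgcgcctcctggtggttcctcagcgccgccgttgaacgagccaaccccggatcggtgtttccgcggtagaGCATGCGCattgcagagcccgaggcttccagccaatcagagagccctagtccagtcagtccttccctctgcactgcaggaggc
Sdhb, chr4:140961021-140961270, plus strand: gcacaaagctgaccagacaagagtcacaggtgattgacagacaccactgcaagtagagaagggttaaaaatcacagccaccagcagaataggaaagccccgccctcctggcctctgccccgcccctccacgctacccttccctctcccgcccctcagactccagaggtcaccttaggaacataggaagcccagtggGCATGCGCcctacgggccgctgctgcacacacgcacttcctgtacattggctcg
Cox6a1, chr5:115348959-115349208, minus strand: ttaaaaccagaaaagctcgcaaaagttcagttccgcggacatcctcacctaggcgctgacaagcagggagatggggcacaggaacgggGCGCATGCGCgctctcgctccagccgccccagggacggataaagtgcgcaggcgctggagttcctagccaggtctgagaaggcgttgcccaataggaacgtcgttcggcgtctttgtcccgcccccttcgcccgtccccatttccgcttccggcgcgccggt
Atp5k, chr5:108434400-108434649, minus strand: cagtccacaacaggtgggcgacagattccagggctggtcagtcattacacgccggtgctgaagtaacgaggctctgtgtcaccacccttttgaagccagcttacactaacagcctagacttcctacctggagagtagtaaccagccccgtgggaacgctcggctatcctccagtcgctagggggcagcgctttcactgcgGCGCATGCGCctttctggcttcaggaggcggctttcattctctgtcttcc
The matches lie 83 to 76 bases before the start in Ndufa6, 54 to 47 in Sdhb, 162 to 153 in Cox6a1 and 50 to 41 in Atp5k; in the latter pair the match runs on both strands and overlaps itself. Of the 10 members with a match, 8 were lower in control and 4 in TCM tumors. Of the 41 members with none of the 4 motifs, 37 and 29 were lower. In control tumors members with and without these letters were thus both mostly lower, and a match is not evidence of binding.

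The same stretch of the 3 members whose tumor change differed between treatments is printed for comparison.
Cox7c, chr13:86046796-86047045, minus strand: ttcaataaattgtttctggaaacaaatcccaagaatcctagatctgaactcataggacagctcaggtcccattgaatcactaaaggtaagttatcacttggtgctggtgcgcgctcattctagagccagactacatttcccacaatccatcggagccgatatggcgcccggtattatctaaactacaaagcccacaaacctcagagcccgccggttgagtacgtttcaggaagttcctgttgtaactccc
Atp5g1, chr11:96075632-96075881, minus strand: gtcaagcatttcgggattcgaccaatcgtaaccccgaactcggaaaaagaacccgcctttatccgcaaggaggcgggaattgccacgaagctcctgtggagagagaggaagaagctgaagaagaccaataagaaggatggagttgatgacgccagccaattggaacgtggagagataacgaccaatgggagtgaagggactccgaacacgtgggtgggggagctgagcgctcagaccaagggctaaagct
Atp5l, chr9:44920743-44920992, minus strand: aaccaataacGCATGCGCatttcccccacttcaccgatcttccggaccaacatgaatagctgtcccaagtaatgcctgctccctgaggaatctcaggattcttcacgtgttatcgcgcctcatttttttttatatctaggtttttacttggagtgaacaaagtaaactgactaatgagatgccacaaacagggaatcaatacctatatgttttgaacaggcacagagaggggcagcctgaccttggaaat
Cox7c and Atp5g1 held none of the 4 motifs in these bases, and Atp5l held the Nrf1 letters 240 to 233 bases before its start, far from where they lie in Sdhb and Atp5k. These positions depend on the start used. Bases shortly after it occur in 1 of 4 annotated transcripts of Atp5l, 1 of 3 of Sdhb and 3 of 3 of Atp5k.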

How the data were processed

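Per the labels' protocols, RNA came from the mirVana kit and libraries from the stranded VAHTS kit for mRNA. The deposited count table holds whole-number counts of reads per gene in each library, unscaled, per the file headers. The deposited FPKM values, the authors' counts per gene length and library total, matched those counts in 11980 genes within 0.00924% and were used only for levels between genes. The builds mm9 and mm10 are named in the submitters' processing notes; no label or header names the aligner or the counter. Rows without a symbol (115) took at most 0.0171% of a library. No library was a copy of another.

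Counts were filtered (filterByExpr, minimum count 10), TMM-scaled and fitted with edgeR 4.0.16 in R 4.3.3, with a mean per group over 16 libraries (12 residual degrees of freedom); p-values were Benjamini-Hochberg adjusted over the 14865 genes tested and called under 0.05. SE is the fold change's size divided by the square root of F. The code was tested on simulated data. Members and gene lists were chosen with earlier results of these data known. Named with values were, per complex, the lowest p and the extreme fold changes in control tumors (mean of at least 5 CPM), calls against a complex's direction, members called in neither tumor comparison, paired isoforms, c-ring genes, Sdha to Sdhd, Cyc1, and the 3 lowest p of each treatment comparison; for each list up to 3 lowest p. Members outside this rule are named where counts were spelled out.

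Tissues of a mouse are paired by the animal codes in the labels. After group means were removed their correlations ran from 0.063 to 0.23 among control mice and from 0.043 to 0.24 among TCM mice; for 7 of 8 the best match was their own tumor. Alternatives were a block per mouse, other scalings (RLE, total count), DESeq2 1.42.0, voom (limma 3.58.1), other filters, fits of the compared groups alone and leaving out libraries. For TCM against control the block was the replicate number instead, which joins different mice.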

Additional observations from a re-analysis of the deposited data

Results flagged for a closer look

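Of 156 groups of 4 libraries examined, 12 held a library whose gap to the nearest of the others exceeded Dixon's 95% critical value as a share of the group's range; chance flags about 1 in 20 groups, 5%. TCM peri-tumor 3 gave 6 of them. Its median log2 ratio was -0.0738 over complex III and -0.122 over complex IV members, where the other TCM peri-tumor libraries lay at 0.11 to 0.13 and 0.12 to 0.15. It was lowest for Ndufa2 (52.8 CPM), Cox6a1 (255 CPM) and Cox8a (123 CPM), and highest for Ndufs1 (140 CPM against 126 to 127). TCM tumor 2 was lowest for Ndufa2 (41.1 CPM) and Cox7a1 (0.558 CPM). Control tumor 4 was lowest for Sdhc (91.0 CPM against 102.07 to 103) and Atp5g3 (153 CPM against 171 to 174). Control tumor 2 was lowest for Atp5l (1.73 CPM), and TCM peri-tumor 4 for Ndufs3 (1.47 CPM against 2.29 to 2.45).

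The tumor change differed between treatments for Cox7c (2.68), Atp5g1 (1.66) and Atp5l (1.49, all log2), by the edgeR test of the difference itself (adjusted p of 0.00015, 0.0052 and 0.0073). All share sequence with pseudogenes. With the copies summed Cox7c was still called (1.61, adjusted p = 0.00253, edgeR). Atp5g1 (0.74, adjusted p = 0.0578) and Atp5l (0.14, adjusted p = 0.641) were not.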

How the results depend on the processing

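The counts of members lower in tumors stayed within 1.5 times their value in every alternative run: leaving out 1 library gave 66 to 70 lower in control and 45 to 52 in TCM mice. Members higher in control tumors numbered 0 to 1 when 1 library was left out and 1 with the mouse as a block. Members higher in TCM tumors numbered 0 to 1 when 1 library was left out, and 0 among members with under 10% shared words, with the copies summed or without TCM peri-tumor 3 and TCM tumor 2 (these last 3 settings were chosen after seeing the data). For TCM against control in peri-tumor liver, the members higher were 4 to 8 without 1 library, 5 with total-count scaling, with no filter, with the groups compared alone or without control mouse 4, and 15 with DESeq2; the members lower were 0 with the copies summed or under 10% shared words. For TCM against control in tumors, the members higher were 3 to 25 without 1 library, 4 with total-count scaling, 5 with no filter, 6 with the groups compared alone, 10 under 10% shared words, 26 with voom and 28 with DESeq2. In the difference of the tumor effect the members higher were 3 to 6 without 1 library (6 without control peri-tumor 4), 5 with DESeq2 or voom, 6 without control mouse 4, 1 with the copies summed and 0 under 10% shared words; DESeq2 called 2 lower. With the copies summed Atp5l reversed, to -0.51 in TCM tumors and 0.0413 with TCM in peri-tumor liver. The cause of these shifts was not tested. Calls over all genes are given for total-count scaling only, so the other shifts cannot be read as particular to the members. Total-count scaling moved the median of all genes to 0.11 in control and 0.14 in TCM tumors and the members' median in TCM tumors to -0.34; relative to all genes the members stayed at -0.69 and -0.47. It called 3856 genes higher and 2369 lower in control tumors (3271 and 3144 with TMM), 3306 and 1468 in TCM tumors (2572 and 2325), 551 and 1322 with TCM in peri-tumor liver (998 and 1093) and 407 and 453 in tumors (677 and 405). With the mouse as a block, which pairs the tissues, 70 members were lower or higher in control and 50 in TCM mice. In the difference of the tumor effect 3 were called with that block. For TCM against control the block was the replicate number, which joins different mice and pairs no tissues. With it 12 members differed in peri-tumor liver and 17 in tumors. Of 165 pairs of a named member and a comparison, leaving out a library ended the call of 13 and added 12, and reversed 0. Depth limits members near 1 to 3 CPM, such as Ndufs3, Atp5g2, Cox7a1 and Ndufa4l2.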

Other observations

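Enzymes that deliver electrons to the chain were in large part lower in tumors, and several were higher with TCM. Of the 18 genes of the TCA cycle and pyruvate dehydrogenase, 12 were lower in tumors of control mice and 12 in those of TCM mice (medians -0.57 and -0.38), and 7 were higher with TCM in peri-tumor liver and 7 in tumors, with 0 lower. Of all genes tested 21.2% and 15.6% were lower in those tumors, and 6.71% and 4.55% were higher with TCM in peri-tumor liver and in tumors. Dlat, the acetyltransferase of pyruvate dehydrogenase, was higher in TCM than in control tumors by 0.72 ± 0.10 (adjusted p = 0.00163, edgeR), and Cs, citrate synthase, by 0.61 ± 0.12 (adjusted p = 0.0103). Pdha1, the first pyruvate dehydrogenase subunit, was higher by 0.58 ± 0.08 in peri-tumor liver and by 0.35 ± 0.08 in tumors. Of 9 electron carriers and feeding enzymes, 6 and 5 were lower in control and TCM tumors, and 3 were higher with TCM in each tissue. Etfdh, which passes electrons of fatty acid oxidation to ubiquinone, was higher with TCM by 0.98 ± 0.11 in peri-tumor liver (adjusted p = 0.000186) and by 0.85 ± 0.11 in tumors (adjusted p = 0.000967). Suox, sulfite oxidase, fell by 2.61 on the log2 scale in control tumors and was higher by 1.32 ± 0.23 in TCM than in control tumors.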
